A study of Mus musculus with 14 samples.

Results

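The insulin-like growth factor (IGF) binding proteins are secreted proteins encoded by 7 genes, Igfbp1 to Igfbp7, and this is an account of their mRNAs in mouse liver from before puberty to young adulthood. Every probe whose RefSeq accession belongs to 1 of the 7 symbols was taken, which gave 8 of the 39429 probes on each array, and 7 of the 19751 named genes. Igfbp2 had 2 probes and each of the other genes had 1. All 8 probes were well above background in both channels of all 14 arrays, so no member was lost to a filter on low signal.

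Total liver RNA came from male and female CD-1 mice that were 3, 4 or 8 wk old, here M3, M4, M8, F3, F4 and F8, and no allele, transgene or agent is given for any group. Each group had 2 RNA pools, of 5 mice at 3 wk and of 6 mice at 4 and 8 wk, so the spread between individual mice was not measured. The pools were set against each other in 7 comparisons on 2-colour Agilent arrays, with 2 arrays and separate pools for each and with the dyes exchanged. Of these, 3 set the sexes against each other (M8/F8, M4/F4 and M3/F3), 2 set male ages (M8/M4 and M8/M3) and 2 set female ages (F8/F4 and F8/F3). A ratio is male over female, or 8 wk over the younger age, and is given as log2, so that 1 stands for a doubling and -1 for a halving. Because the samples were whole liver, fewer cells of a type and less RNA per cell cannot be told apart.

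IGF-I, most of which is made by hepatocytes under the control of growth hormone, circulates bound to these proteins, which hold it in the blood and set how much of it is free to reach its receptor. Igfbp3 and Igfbp5 can join IGF and the acid-labile subunit (Igfals) in a long-lived ternary complex, whereas Igfbp1 and Igfbp2 form smaller complexes that leave the circulation more readily. Hepatocytes transcribe Igfbp1 during fasting and stop when insulin rises, and they also make Igfbp2, while Igfbp3 mRNA in rodent liver is found mainly in the non-parenchymal cells of the sinusoids. Igfbp4, Igfbp5 and Igfbp6 are made by many stromal cells, and Igfbp7 is a low-affinity relative found around blood vessels.

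Of the 7 genes, 4 lie in pairs of neighbours in the genome. Igfbp1 and Igfbp3 are next to each other on chromosome 11 with 0 annotated genes between them, and Igfbp2 and Igfbp5 likewise adjoin on chromosome 1 with 0 between them. Igfbp4 is also on chromosome 11, Igfbp6 is on chromosome 15 and Igfbp7 is on chromosome 5. The 250 bases before the annotated transcription start are printed for the 3 genes that had the widest span of group levels. They come from RefSeq promoters of build GRCm38.p6 (the array files name an earlier build), 5′ to 3′ on the strand of the gene, at chr11:7197537-7197786 (+ strand), chr1:72824230-72824479 (+ strand, the first of 2 listed starts) and chr11:7213924-7214173 (- strand). Capitals mark matches on either strand to 1 of 6 short motifs.
Igfbp1: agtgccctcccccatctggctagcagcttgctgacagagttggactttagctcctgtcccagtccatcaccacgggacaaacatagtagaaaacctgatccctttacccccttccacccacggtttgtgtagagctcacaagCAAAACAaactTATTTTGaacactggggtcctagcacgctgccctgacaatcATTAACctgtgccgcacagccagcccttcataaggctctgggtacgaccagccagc
Igfbp2: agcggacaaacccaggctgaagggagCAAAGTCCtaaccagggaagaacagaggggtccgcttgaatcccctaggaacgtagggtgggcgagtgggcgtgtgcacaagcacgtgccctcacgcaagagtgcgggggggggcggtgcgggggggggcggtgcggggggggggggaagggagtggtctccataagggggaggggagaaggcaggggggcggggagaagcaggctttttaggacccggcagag
Igfbp3: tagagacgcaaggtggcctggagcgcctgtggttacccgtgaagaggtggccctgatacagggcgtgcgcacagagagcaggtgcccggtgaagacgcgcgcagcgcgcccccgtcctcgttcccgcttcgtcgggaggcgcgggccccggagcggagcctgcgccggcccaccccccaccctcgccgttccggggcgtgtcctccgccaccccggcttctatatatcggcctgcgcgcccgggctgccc

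The motifs were chosen after the sequences had been read. They were CAAAACA and CAAAATA (the 2 parts of the insulin response element known from Igfbp1), TTCNNNGAA (bound by STAT5, which carries growth hormone signals), GTTAAT (HNF1), CAAAGTCC (HNF4) and TATAAA (the TATA box). The Igfbp1 promoter holds CAAAACA 108 to 102 bases before the start and CAAAATA, on the opposite strand, at 97 to 91. These were found in 5.56% and 3.95% of the same windows of all 32851 listed promoters. Igfbp1 also holds GTTAAT at 56 to 51 (6.43% of promoters), and Igfbp2 holds CAAAGTCC at 224 to 217 (1.20%). No motif of the 6 matched in the window of Igfbp3, and TTCNNNGAA (7.02% of promoters) matched in none of the 7 genes. TATAAA (12.4%) matched in Igfbp4 and Igfbp6. A match describes the letters and not a bound site. The G and C share of the window was 53.2% for Igfbp1, 67.2% for Igfbp2 and 73.2% for Igfbp3.

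The direction of the ratios was checked on genes of the sex chromosomes. Xist, transcribed from the inactive X chromosome of females, was lower in male liver on all 6 arrays of male against female liver, and the male channel was not well above background on 5 of them. Ddx3y, a Y-chromosome gene, had log2 ratios of 5.81 to 7.24. Between 55.2% and 77.2% of the spots in a channel were well above background. The 14 arrays lay on 4 slides scanned on 2 days, with the sex comparisons and M8/M3 on the first day, and each slide held arrays of 1 replicate number. With 2 arrays for each comparison, their number limits the precision. The p-values rest on the spread between replicate arrays, which holds pool and array differences, and the fit takes the arrays as independent. Taking pools of 1 replicate number as the same RNA, pool variance was estimated at 4.17 times array variance over 21645 probes.

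A gene was called when limma's moderated test gave an adjusted p below 0.05, the ratio was above 1.5 or below 0.667, and 1 of both groups was well above background. Of 49 pairs of a binding protein and a comparison, 8 were called. They fell to 4 genes, Igfbp1, Igfbp2, Igfbp3 and Igfbp7, and Igfbp4, Igfbp5 and Igfbp6 were called in none. The share of all probes tested with a call in any of the 7 was 21.8%. Between the sexes, 3 of 21 pairs were called, all lower in male liver and all before 8 wk. M3/F3 had 2 of 7 genes called, Igfbp1 and Igfbp2, where 0.464% of all probes tested were called. M4/F4 had 1, Igfbp2, where 1.44% were called. M8/F8 had 0 of 7, where 6.31% were called and 4 of 7 had an unadjusted p below 0.05.

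With age, 4 of 14 pairs were called in male liver and 1 of 14 in female liver. M8/M3 and M8/M4 each had 1 gene higher at 8 wk (Igfbp2) and 1 lower (Igfbp3), where 16.8% and 10.1% of all probes were called. F8/F3 had 1 lower (Igfbp7), where 10.8% were called, and F8/F4 had 0, where 5.41% were called and 3 of 7 had an unadjusted p below 0.05. With 7 genes, 0 to 2 calls in an age comparison are close to what the share of all probes comes to. The median log2 ratio of the 7 genes lay between -0.41 in F8/F3 and -0.07 in M4/F4, and that of all probes tested between 0.00 in M3/F3 and 0.02 in F8/F3. The comparisons share pools: M8 RNA entered M8/F8, M8/M3 and M8/M4, for example, so their values are not independent.

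**Figure D1:**
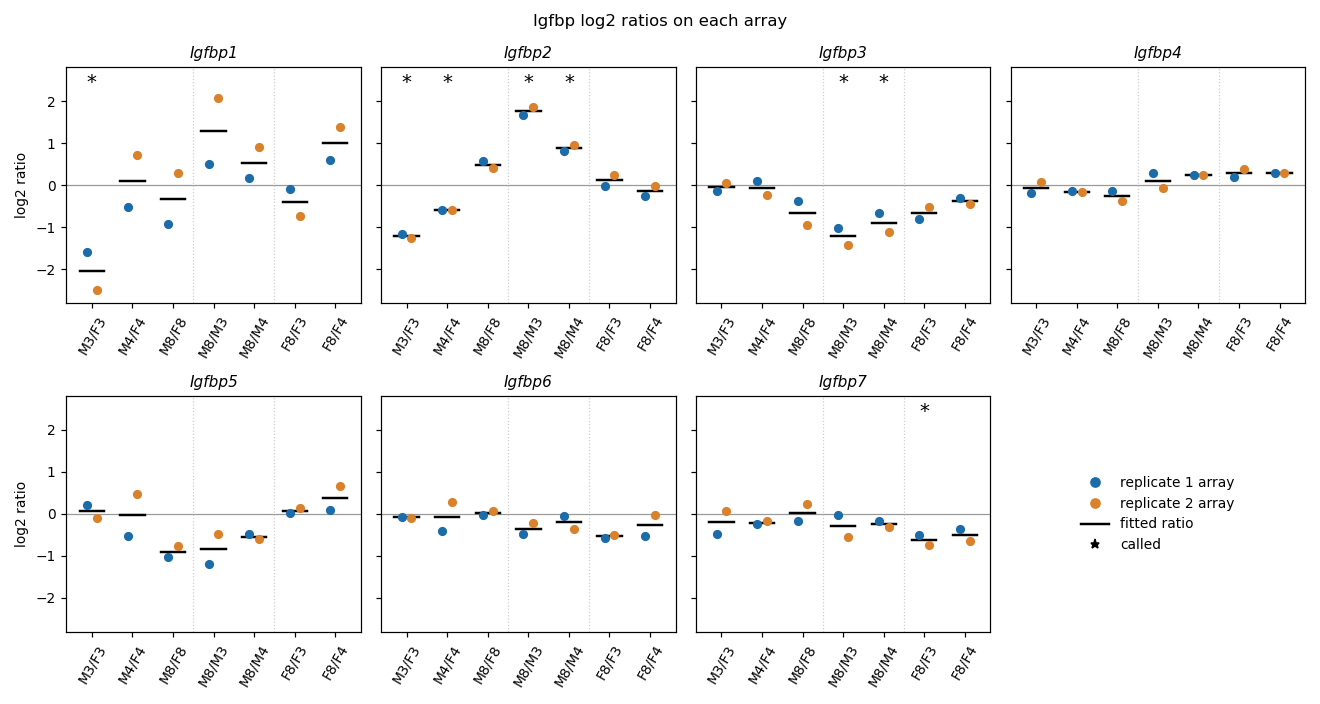
The log2 ratio of each Igfbp gene (1 panel each) is plotted for the 7 comparisons on the horizontal axis, with 1 point per array, a bar at the fitted ratio and a star where the gene was called. The points of Igfbp2 lie close together in each comparison, from -1.27 and -1.17 in M3/F3 to 1.67 and 1.87 in M8/M3, whereas those of Igfbp1 lie far apart.

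Igfbp2, a circulating carrier of IGF that hepatocytes secrete, had a female excess before puberty that was reversed in sign at 8 wk. In M3/F3 its log2 ratio was -1.17 on the array of replicate 1 and -1.27 on that of replicate 2, and in M4/F4 it was -0.60 on each. In M8/F8 it was 0.57 and 0.40. The sex ratio thus had the same sign on both arrays at each age, and its values at 3, 4 and 8 wk did not overlap. Igfbp2 mRNA was 2.33-fold lower in male than in female liver at 3 wk (log2 ratio -1.22 ± 0.05, SE; limma adjusted p = 8.54e-05) and 1.51-fold lower at 4 wk (-0.60 ± 0.05, adjusted p = 0.000619). At 8 wk it was 1.398-fold higher in males (0.48 ± 0.05, adjusted p = 0.0013), which passed the p threshold but not the fold threshold, so this was no call.

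The rise of Igfbp2 with age was found in males. Its log2 ratio was 1.67 and 1.87 in M8/M3 and 0.81 and 0.94 in M8/M4. In females the arrays gave -0.26 and -0.02 for F8/F4 and -0.03 and 0.25 for F8/F3, on both sides of 0 or close to it. Male liver at 8 wk had 3.41-fold the level of male liver at 3 wk (log2 ratio 1.77 ± 0.05, adjusted p = 5.37e-05) and 1.84-fold that at 4 wk (0.88 ± 0.05, adjusted p = 0.000185). In female liver the ratios were 0.11 ± 0.05 against 3 wk and -0.14 ± 0.05 against 4 wk, with adjusted p = 0.209 and 0.112 by limma. The difference between the sexes was tested directly. M8/M3 minus F8/F3 was 1.66 (95% interval 1.499 to 1.82, limma adjusted p = 0.000652) and M8/M4 minus F8/F4 was 1.02 (0.86 to 1.18, adjusted p = 0.00484). Igfbp2 was the only binding protein called in either of these tests, in which 3.22% and 1.34% of all probes were called.

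The males' change could be divided at 4 wk through the 8 wk pools, which both younger ages were compared with. M8/M3 and M8/M4 lay on different slides scanned on different days, whereas F8/F3 and F8/F4 shared slides and a day. M4 over M3 was 0.89 ± 0.07 (limma adjusted p = 0.0168), in a contrast in which 0.231% of all probes were called. F4 over F3 was 0.25 ± 0.07 (adjusted p = 0.264), where 0.0916% were called. About as large a step in the log2 level of Igfbp2 thus lay between 3 and 4 wk (0.89) as between 4 and 8 wk (0.88) in males. The call for M4 over M3 was lost when M8/M3 replicate 2 was left out (0.87, adjusted p = 0.0556), or either M8/F8 array (adjusted p = 0.0544), or the dye term (adjusted p = 0.0527). The call in M4/F4 was lost without M4/F4 replicate 1 (-0.50) or with a model of 6 group means (-0.58), in both cases because the ratio no longer passed the fold threshold. Every other call of Igfbp2 was kept under all alternatives.

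The second probe of Igfbp2 gave the same calls and interactions. Its log2 ratio was -1.36 and -1.26 in M3/F3 and 2.00 and 2.12 in M8/M3, and both probes had the same sign on 13 of 14 arrays and differed by at most 0.33. The exception was F8/F3 replicate 1, with -0.03 and 0.05.

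The levels of Igfbp2 in single channels put the groups in the order M8, F4, F8, F3, M4 and M3. A level is the log2 of the processed signal minus the 75th percentile of its channel, and is compared only within a probe. M8 pools were at 3.70 and 3.81, and M3 pools at 1.71 and 1.89. The pools of no neighbouring groups in this order overlapped, but the gaps were small between F4 and F8 (0.01), F8 and F3 (0.06) and F3 and M4 (0.03), and wide only below M4, where 0.95 separated it from M3, and above F4, where 0.24 separated it from M8. The gap from F4 to F8 was smaller than the spread between the F8 pools (SD 0.18).

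**Figure D2:**
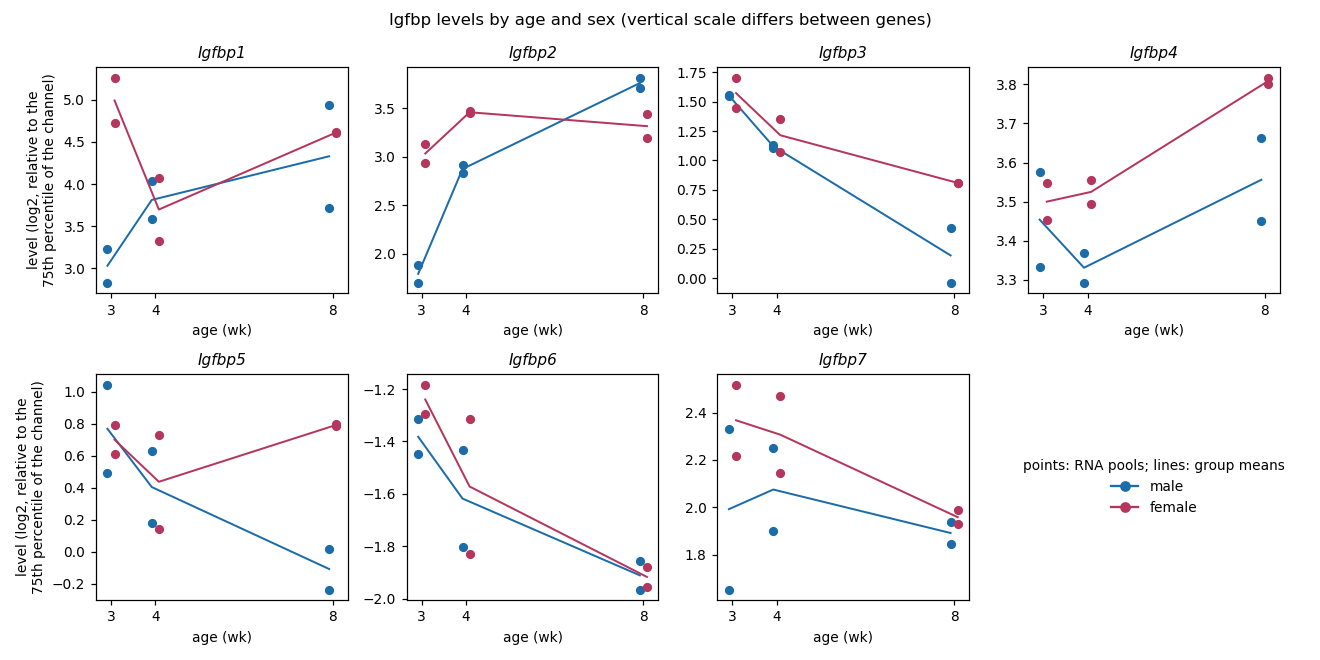
The level of each Igfbp gene (1 panel each, log2 relative to the 75th percentile of the channel) is plotted against age in wk, with points for the RNA pools and lines through the means of the males and of the females. Male Igfbp2 climbs from 1.80 at 3 wk to 3.76 at 8 wk and crosses the female line, whereas Igfbp3 descends in both sexes, to 0.19 in M8 and 0.81 in F8.

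Igfbp1, the binding protein that insulin represses, was lower in male than in female liver at 3 wk, with log2 ratios of -1.59 and -2.504 in M3/F3. Both arrays were far below 0. The fitted ratio of -2.04 ± 0.53 is a 4.13-fold lower level in males (limma adjusted p = 0.0481), which is just inside the threshold. Leaving out 1 array ended the call in 13 of 14 cases, with adjusted p of 0.0506 to 0.297, and adjustment of the p-values within this comparison alone gave 0.331.

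At the other ages the pools of Igfbp1 did not go the same way. Its log2 ratio was -0.52 and 0.71 in M4/F4, and -0.93 and 0.28 in M8/F8. In both comparisons the arrays had opposite signs. With age, male liver gave 0.49 and 2.08 for M8/M3 and 0.16 and 0.91 for M8/M4. Female liver gave 0.60 and 1.39 for F8/F4, and -0.08 and -0.73 for F8/F3. None of these 6 comparisons was called, with adjusted p from 0.18 to 1, and the 95% interval of M8/F8, from -1.59 to 0.94, holds large differences either way. M8/M3 was called under 1 of 26 alternatives, the model of 6 group means (1.29, adjusted p = 0.047). That model joins arrays that may share pools as if they were independent, so its p-values may be too small. M8/M3 minus F8/F3 was 1.70 (adjusted p = 0.304, or 0.0291 with 6 group means, which called it) and M8/M4 minus F8/F4 was -0.46 (adjusted p = 0.928).

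The 2 replicates of Igfbp1 differed more than those of nearly all probes. The SD of the 2 arrays was 0.46 to 1.12 in the 7 comparisons, where the median probe had 0.10 to 0.12, and 93.9% to 99.4% of probes had a smaller SD. Single channels placed the M8 pools at 3.72 and 4.94 and the F8 pools at 4.61 and 4.62. The sex difference of the change with age could be read for each replicate from the age arrays (M8/M3 minus F8/F3) and from separate arrays (M8/F8 minus M3/F3). For Igfbp1 this was 0.58 and 0.65 in replicate 1, but 2.82 and 2.79 in replicate 2. Over the 7 genes, both ages and both replicates, these routes differed by at most 0.17, and both had the same sign wherever the value was above 0.05 in size. The labels do not say that pools with 1 replicate number were the same RNA in every comparison. Over 21645 probes, the differences between replicates that the routes gave correlated at r = 0.882 at 3 wk and 0.878 at 4 wk. Where both routes read the same pools, the difference between them covers array error only.

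**Figure D3:**
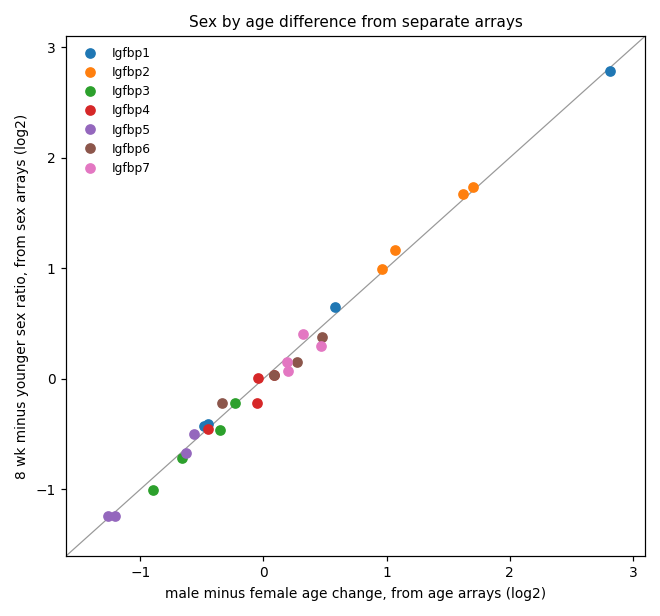
For each Igfbp gene, age and replicate, the sex by age difference read from the age arrays (horizontal axis, log2) is plotted against the same quantity read from the sex arrays (vertical axis, log2), with the line of equality. All 28 points lie near the line, while the 2 replicates of Igfbp1 at 3 wk lie far apart, at 0.58 and 2.82 on the horizontal axis.

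Other genes that insulin regulates were read beside Igfbp1. Of 8 insulin-repressed and fasting genes, 1 was called in M3/F3, where 0.464% of all probes were, and it was Pck1, which encodes the rate-limiting enzyme of gluconeogenesis (-1.19, limma adjusted p = 0.0123). The median of the 8 was -0.29, against 0.00 over all probes tested. In M8/M3, where 16.8% of all probes were called, Pck1 was higher at 8 wk (1.36, adjusted p = 0.00753), and 3 of 4 insulin-induced genes were lower, namely Srebf1 (-0.82), Fasn (-0.96) and Pnpla3 (-3.28), regulators and enzymes of lipid synthesis. The other calls among the 8 were Ppargc1a, a coactivator of gluconeogenic genes, lower in M4/F4 (-1.104, adjusted p = 0.0143) and higher in M8/M4 and F8/F3 (0.82 in each, adjusted p = 0.0436 and 0.043), and Tat, an enzyme of tyrosine breakdown, higher at 8 wk for F8/F4 (0.65, adjusted p = 0.000207). Of the 4 insulin-induced genes, Pnpla3 was also lower in M8/M4 (-1.74, adjusted p = 0.0489), and 0 were called in the other 5 comparisons. The time since feeding is not given in the labels, and its part in the levels of Igfbp1 was not tested.

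Igfbp3, the main carrier in the ternary complex, declined with age in males. Its log2 ratio was -1.03 and -1.42 in M8/M3 and -0.66 and -1.12 in M8/M4. All of these arrays were lower at 8 wk. Igfbp3 mRNA was 2.34-fold lower in M8 than in M3 (-1.22 ± 0.19, limma adjusted p = 0.00671) and 1.86-fold lower than in M4 (-0.89 ± 0.19, adjusted p = 0.0224). In female liver it was -0.80 and -0.52 against 3 wk and -0.31 and -0.46 against 4 wk, also below 0 on every array. F8/F3 was 1.58-fold lower (-0.66 ± 0.19, adjusted p = 0.0644), which was not called, and F8/F4 was -0.39 (adjusted p = 0.259). That males were called and females were not does not show that the sexes differed, since M8/M3 minus F8/F3 was -0.56 (95% interval -1.20 to 0.07, adjusted p = 0.336) and M8/M4 minus F8/F4 was -0.51 (-1.14 to 0.13, adjusted p = 0.481).

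Between the sexes, Igfbp3 was -0.15 and 0.04 at 3 wk and 0.10 and -0.24 at 4 wk. At 8 wk both arrays were below 0, with -0.37 and -0.96 (-0.66 ± 0.19, limma adjusted p = 0.0638), which was not called. The calls in M8/M3 and M8/M4 were lost without replicate 2 of the same comparison (-0.99, adjusted p = 0.0768, and -0.62, adjusted p = 0.214), and that in M8/M4 also with an average of both arrays weighted by their modelled errors, at the study's p threshold (-0.88, unadjusted p = 0.000137). In contrast, M8/F8 and F8/F3 passed under 4 and 6 of 26 alternatives, M8/F8 among them with shared pools in the covariance (-0.66, adjusted p = 0.0497). The levels ran F3, M3, F4, M4, F8 and M8 from high to low. The pools of M3 and F3 overlapped, as did those of M4 and F4, while M8, at -0.04 and 0.43, lay below F8, at 0.81 in both pools.

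Some markers of other liver cells were also lower at 8 wk. Of 12 stellate cell and fibroblast markers, 5 were called lower in M8/M3 and 4 in each of the other 3 age comparisons, with 0 called higher, and 11 of the 12 were well above background in all channels. Their summed level, in units of the 75th percentile of the channel, was 106.98 to 116 in M3, 90.4 to 97.6 in M4 and 54.5 to 62.1 in M8, and 104 to 113 in F3, 97.6 to 103 in F4 and 64.4 to 67.5 in F8. Endothelial markers (12 genes, all well above background) had sums of 52.6 to 52.7 in M3 and 45.2 to 47.3 in M8, with 1 called lower in each age comparison except F8/F4, which had 0. Their median log2 ratio in M8/M3 was -0.085. Kupffer cell markers (9 genes, all well above background) summed to 36.0 to 39.6 in M3 and 24.4 to 29.9 in M8, with 2 called lower. In M8/F8, beside the ratio of Igfbp3 below 0, 5 of the 9 were called lower (median log2 ratio -0.59), and F8 summed to 38.0 to 41.2. Hepatocyte markers (8 genes, all well above background, as liver should have) overlapped, at 915 to 939 in M3 and 915 to 924 in M8. Of these 8, 1 was called higher and 2 lower in M8/M3, 2 were lower in M8/M4, 1 was lower in F8/F3 and in M8/F8, and 1 was higher and 1 lower for F8/F4. Of the markers tested in other lists, 5 of 6 mesothelial, 2 of 5 bile duct, 1 of 7 lymphocyte and 4 of 6 erythroid were called lower in M8/M3. There 1 erythroid marker was called higher. In F8/F3, with as many tested, 3, 1, 0 and 4 were called lower. Of all probes, 16.8% were called in M8/M3 and 10.1% in M8/M4, 10.8% and 5.41% in the female comparisons with 3 and 4 wk, and 6.31% in M8/F8, so the endothelial, Kupffer and lymphocyte counts in M8/M3 are near the share of all probes. The part of these shifts in the ratios of Igfbp3 was not tested.

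Igfbp7, the low-affinity vascular member, was the only binding protein called with age in female liver. Its log2 ratio was -0.50 and -0.73 in F8/F3, and it was -0.36 and -0.64 for F8/F4, lower at 8 wk on all 4 arrays. F8 was 1.53-fold below F3 (-0.62 ± 0.09, limma adjusted p = 0.00468). Against F4 it was 1.42-fold below (-0.50 ± 0.09, adjusted p = 0.0104), which passed the p threshold but not the fold threshold. In males it was -0.04 and -0.54 in M8/M3 and -0.16 and -0.31 in M8/M4, with adjusted p = 0.0741 and 0.131.

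The difference of the sexes for Igfbp7 did not pass either test, at 0.33 for M8/M3 minus F8/F3 (95% interval 0.04 to 0.62, limma adjusted p = 0.219) and 0.26 for M8/M4 minus F8/F4 (adjusted p = 0.431). The M3 pools were far apart, at 1.65 and 2.33, and spanned the range of the other groups except the upper F3 and F4 pools. The call in F8/F3 was lost with normexp background correction (-0.56, under the fold threshold), without the dye term (adjusted p = 0.0571) and without F8/F3 replicate 1 (adjusted p = 0.052). Between the sexes it was -0.47 and 0.08 at 3 wk, -0.25 and -0.18 at 4 wk and -0.18 and 0.23 at 8 wk. The summed endothelial markers were 54.5 to 55.1 in F3 and 48.1 to 51.6 in F8. Those of stellate cells and fibroblasts were 104 to 113 in F3 and 64.4 to 67.5 in F8. The part of either in the decline of Igfbp7 was not tested.

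Igfbp5, the other member that can enter the ternary complex, had its lowest level in M8 without reaching a call. Its log2 ratio was -1.03 and -0.76 in M8/F8 and -1.19 and -0.48 in M8/M3. Both M8 pools, at -0.24 and 0.02, lay below all pools of the other 5 groups, of which the lowest was at 0.14. M8/F8 was 1.86-fold lower (-0.89 ± 0.27, limma adjusted p = 0.0777) and M8/M3 1.79-fold lower (-0.84 ± 0.27, adjusted p = 0.0958). In females it was 0.01 and 0.15 against 3 wk and 0.09 and 0.66 against 4 wk. The male minus female difference was -0.92 against 3 wk (95% interval -1.83 to -0.01, adjusted p = 0.27) and -0.91 against 4 wk (-1.82 to -0.003, adjusted p = 0.374).

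At 4 wk the arrays of Igfbp5 went opposite ways, at -0.52 and 0.47 in M4/F4 (SD 0.70, more than in 98.8% of probes). Its ratios were called under some alternatives. M8/F8 passed under 5 of 26, namely without either M4/F4 array (limma adjusted p = 0.0287 or 0.0279), with normexp (adjusted p = 0.0358), with 6 group means (adjusted p = 0.00691) and with the same error-weighted average (unadjusted p = 1.09e-08). M8/M3 passed under 3, without either M4/F4 array (adjusted p = 0.0353 or 0.0344) and with 6 group means (adjusted p = 0.0148). Only the model of 6 group means called the male minus female differences (adjusted p = 0.0199 against 3 wk and 0.0405 against 4 wk). The Kupffer cell markers lower in M8/F8, and the stellate cell and fibroblast markers lower in M8/M3, were lower beside Igfbp5 too. The part of either in the ratios of Igfbp5 was not tested. The neighbour on chromosome 1, Igfbp2, had the opposite order in males, being highest in M8.

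Igfbp4, a binding protein that holds IGF back from its receptor until it is cleaved, had the narrowest ratios. Its log2 ratios lay between -0.39 and 0.38 on all 14 arrays, and no comparison passed, with adjusted p from 0.122 to 0.893. The values closest to a call were those with age in females, at 0.19 and 0.38 for F8/F3 and 0.29 and 0.28 for F8/F4. F8 pools, at 3.80 and 3.82, lay above all other pools, of which the highest was at 3.66 in M8. Their 95% intervals, 0.05 to 0.53 in both comparisons after fitting, exclude changes as large as the fold threshold.

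Igfbp6, which prefers IGF-II to IGF-I, lay below 0 on all 8 arrays that compared 8 wk with a younger age. Against 3 wk the log2 ratio was -0.48 and -0.23 in males and -0.56 and -0.50 in females. Against 4 wk it was -0.05 and -0.36 in males and -0.52 and -0.02 in females. None of these was called (adjusted p from 0.115 to 0.614). In M8/F8 it was -0.03 and 0.06. The pools of M8 and F8 overlapped and lay below all pools of 3 and 4 wk. Neither Igfbp4 nor Igfbp6 was called under any of the 26 alternatives.

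**Figure D4:**
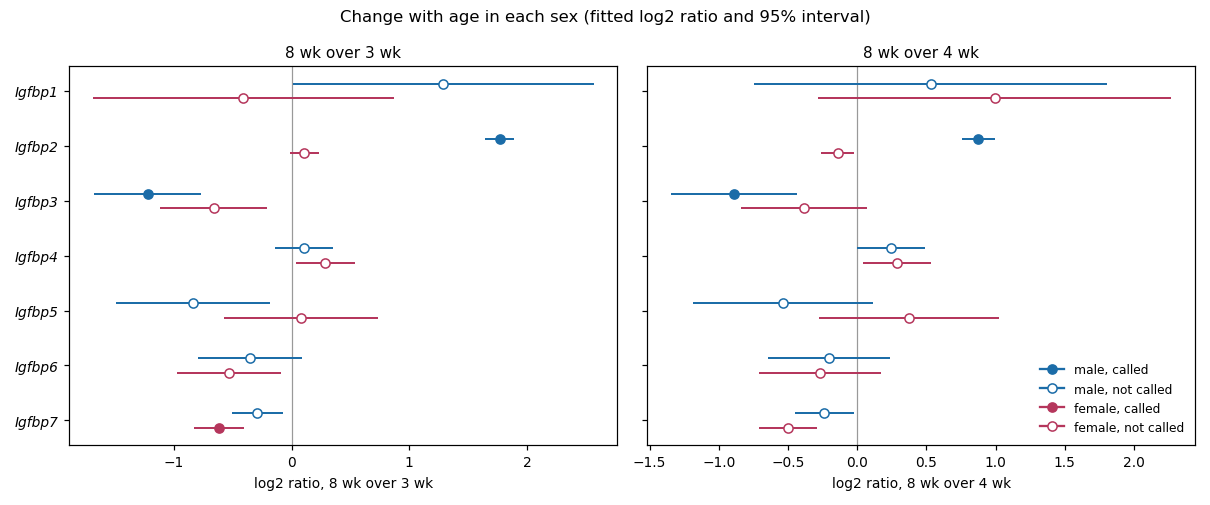
The fitted log2 ratio of 8 wk over 3 wk (left) and over 4 wk (right) is plotted for each Igfbp gene in males and in females, with a 95% confidence interval and a filled point where the gene was called. The intervals of the sexes are apart for Igfbp2 in both panels, where males are at 1.77 and 0.88 and females at 0.11 and -0.14.

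Across the 14 arrays, the ratios of Igfbp2 and Igfbp3 ran in opposite directions (Pearson r = -0.88) and those of Igfbp1 and Igfbp2 in the same direction (r = 0.66). Arrays share pools, so these are descriptions of 14 dependent points, and no p is given. Among 13025 genes the ratios most like those of Igfbp2 were those of Spsb1 (r = 0.99), Chpt1 (0.98) and Gm5591 (0.98), and these had higher levels in M8 than in F8, at 0.85, 0.71 and 2.01, but nothing like its female excess at 3 wk (-0.06, 0.03 and -0.43, against -1.22). Igfbp3 was most like Itga1 (0.99), Ifitm3 (0.96) and Ebi3 (0.95). For Igfbp1 the genes were Arl4d (0.94), Ppp1r3g (0.90) and Slc27a4 (0.88), and for Igfbp7 Gm10778 (0.95), Mrpl30 (0.94) and Anapc1 (0.94), whose own ratios were small.

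The rest of the IGF system was measured by 30 genes with a probe, of which 24 were well above background in some comparison and 11 were called in at least 1, where 21.8% of all probes tested were called in at least 1. These 11 genes made 26 calls, of which normexp background correction kept 12 and lost 14, and 6 of the lost calls still passed the p threshold. The calls lost were those of Igf2, Pappa2, Esm1, Ccn3 and Ccn6 in every comparison named here, and those of Igfals, Stc1 and Ccn4 in M8/M3. The ligand Igf1 was -0.29 and -0.70 in M8/F8 and -0.71 and -0.38 in M8/M3, lower in M8 on all 4 arrays. Its fitted ratios, -0.50 and -0.54, had limma adjusted p = 0.000474 and 0.000358 and did not pass the fold threshold. The male minus female difference of its change from 3 to 8 wk, -0.60, was called (adjusted p = 0.00337). The ligand Igf2, the fetal IGF, was called lower in M8 than in M3 (adjusted p = 0.0289), M8 being not well above background. After normexp its log2 ratio was -0.229 (limma adjusted p = 0.665).

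Igfals, the acid-labile subunit that completes the ternary complex, went with Igf1. It was -0.48 and -0.75 in M8/F8 and -0.63 and -0.56 in M8/M3, both called (-0.61 and -0.60, adjusted p = 0.00599 and 0.00665 by limma). M8/M3 minus F8/F3 was -0.70 (adjusted p = 0.0342). Igf1, Igfals, Igfbp3 and Igfbp5 thus each had a negative fitted ratio in M8/F8 and in M8/M3, while Igfbp2 had a positive one in both. Igf1r, Igf2r and Insr, the receptors for IGF-I, IGF-II and insulin, were called in 0 of 7 comparisons. Insr had 0.55 for M8/M3 and 0.53 for F8/F3 (adjusted p = 0.00939 and 0.0113), short of the fold threshold.

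Of 8 proteases that cleave binding proteins, 6 were well above background and so tested in M8/M3 and in F8/F3. In each sex 2 were called lower at 8 than at 3 wk, and 0 were called higher. Of all probes tested, 16.8% were called in males and 10.8% in females. Adamts1 fell by 0.69 in males and by 0.82 in females on the log2 scale (limma adjusted p = 0.000829 and 0.000449). Pappa2, which cleaves Igfbp3 and Igfbp5, was called lower in males and in females (adjusted p = 0.0303 and 0.00866), with 8 wk liver not well above background. After normexp its log2 ratios were -0.165 in M8/M3 and -0.533 in F8/F3 (limma adjusted p = 0.581 and 0.0387), and neither was called. Pappa, which cleaves Igfbp4, was not called. Its inhibitor Stc1 was lower in M8 than in M3 (-0.75, adjusted p = 0.000382) and M4 (-0.81, adjusted p = 0.000308), and its change from 3 to 8 wk differed between the sexes (-0.64, adjusted p = 0.0086). After normexp, Stc1 was at -0.258 in M8/M3 (limma adjusted p = 0.0751) and -0.663 in M8/M4.

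Relatives that share the binding domain went both ways. Ccn1 rose in M8/M3 and M8/M4 (0.71 and 0.80, limma adjusted p = 0.0037 and 0.00234) and Esm1 rose in M8/M3 (1.42, adjusted p = 0.0499). With normexp, Esm1 was at 0.634 (adjusted p = 0.148). Ccn6 was called higher in M8/M3 (adjusted p = 0.00186), at 1.304 on the array of replicate 1, and M3 was not well above background on that of replicate 2, so no fitted size is given. It rose in M8/M4 (1.099, adjusted p = 0.0187), where normexp gave only 0.392 (adjusted p = 0.0105), under the fold threshold. Ccn4 fell by 0.61 in males and by 0.88 in females from 3 to 8 wk (adjusted p = 0.0127 and 0.00295). Ccn6 was also called higher in F8 than in F3 (adjusted p = 0.00367), with F3 not well above background. After normexp that log2 ratio was 0.255 (limma adjusted p = 0.0685). Ccn3 was called lower at 8 wk in all 4 age comparisons, with 8 wk liver not well above background. After normexp its log2 ratios lay between -0.102 in M8/M3 (limma adjusted p = 0.512) and -0.507 in M8/M4 (adjusted p = 0.00247). None of these passed the fold threshold. Igf2bp3, which binds Igf2 mRNA, fell by 3.42 in males and by 2.25 in females from 3 to 8 wk (adjusted p = 0.00126 and 0.00616). After normexp the log2 ratios were -2.565 and -2.131. Igf2bp3 kept both of these calls. It was also called lower in M8/F8, at -0.82 and -1.745 on the arrays (-1.28, adjusted p = 0.0499), a call that held under 10 of 26 alternatives. That of Esm1 held under 11 of 26.

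**Figure D5:**
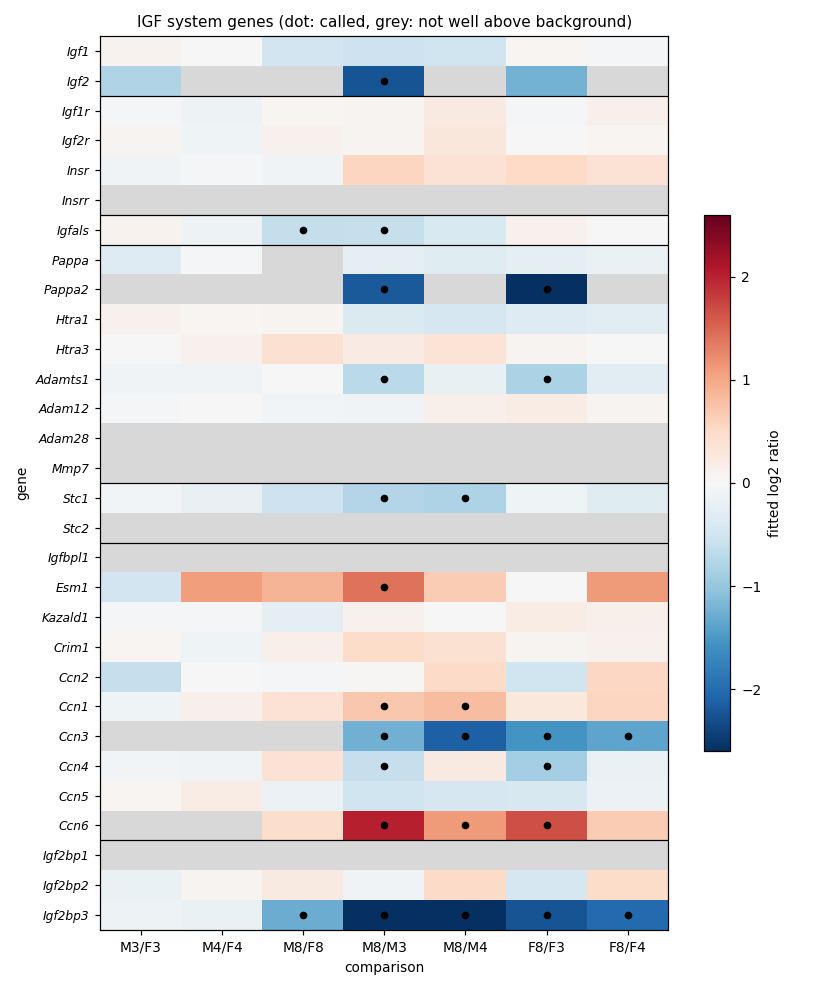
Fitted log2 ratios (colour scale) of the 30 other genes of the IGF system are shown in rows, grouped by role, for the 7 comparisons in columns, with a dot where the gene was called and grey where neither group was well above background on both arrays. Calls lie in the age comparisons and M8/F8, with Igfals at -0.61 and Igf2bp3 at -1.28 in M8/F8 and none in M3/F3 or M4/F4; for genes with a group not well above background the colour is not a measured size.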

How the data were processed

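The deposited scanner files hold, for each spot, intensities that the authors obtained with Agilent Feature Extraction 10.7.1.1, raw and as processed signals (background subtracted, dyes normalized by linear and LOWESS steps), and a log10 ratio of red over green with its modelled error. The deposited series table held the same log10 ratios (largest difference 0). Dyes were taken from the labels. The example of dyes in the study's methods has them the other way round, and the sex-chromosome genes had the direction of the labels. Ratios were turned to log2, non-uniform spots were left out and spots of a probe averaged. RefSeq accessions named 26055 of 39429 probes. The probe of a gene was the one with the highest mean signal. In R 4.3.3, limma 3.58.1 fitted 7 comparisons and 1 dye term to all 14 arrays (6 residual degrees of freedom). Benjamini-Hochberg adjustment ran over the 7 comparisons with all their probes, and over the probes of each further contrast. Where a group was dim on every array, no size from the main fit is given. The log2 ratio after normexp (offset 50) and loess is given instead, with the adjusted p of that fit. The fit was tested on simulated data in which the arrays were independent. That test does not bear on error rates where arrays share pools. The members and gene lists were chosen with earlier results of these data known. All 7 members are named with every probe, with the genes of the IGF system lists and the 3 genes whose ratios were most like those of each called member. Cell type markers were read from lists for hepatocytes, endothelial, stellate, Kupffer, mesothelial, bile duct, lymphocyte and erythroid cells, and insulin-repressed and insulin-induced genes were read beside Igfbp1.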

Additional observations from a re-analysis of the deposited data

Results flagged for a closer look

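The change of Igfbp2 with age differed between the sexes in both tests of that difference. M8/M3 minus F8/F3 was 1.66 (log2; limma adjusted p = 0.000652), higher in males in 2 of 2 replicates, at 1.70 and 1.62. M8/M4 minus F8/F4 was 1.02 (adjusted p = 0.00484), at 1.07 and 0.97 in the replicates. The second probe gave 1.89 and 1.14.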

How the results depend on the processing

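Under the 26 alternatives none of the called ratios, interactions or changes from 3 to 4 wk of the binding proteins changed sign. The 8 pairs called among the binding proteins stayed within 1.5 times that number. With the replicate block they were 8, with 2 interactions, 1 change from 3 to 4 wk and 26 pairs of the IGF system, and it changed no call of a binding protein. Deviations of arrays with the same replicate number correlated at -0.53 to 0.68 over 21 pairs of comparisons (11 above 0.1), so the numbers were not blocked on. These signs do not bear on whether pools were reused, since a pool shared on opposite sides of 2 ratios gives a negative correlation. A fit with shared pools in the covariance called 9 pairs, the added pair being Igfbp3 in M8/F8. A model of 6 group means joins several arrays for each ratio as if they were independent, although they may share pools, so its p-values may be too small. It called 5 interactions among the binding proteins and the cause was not tested. The single change from 3 to 4 wk became 0 without the dye term, and ranged from 0 to 1 when 1 array was left out. For the IGF system, normexp gave 13 pairs and no fold threshold gave 48. The cause of the first was not tested, and the second follows from the wider rule. Levels kept their order of groups under quantile normalization except in Igfbp4, where M8 and F4 exchanged ranks 2 and 3.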
